A study of Drosophila melanogaster with 12 samples.

Results

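The introns described here are the 1714 of 17817 introns in the deposited retention table that carry the class name clean and are 60 to 99 nt long, measured as the end minus the start of the deposited coordinates. They lie in 818 protein-coding genes, 380 of which hold 1 such intron, and up to 11 are in 1 gene. All 1714 matched an intron of the Ensembl BDGP6 annotation. None overlapped an annotated gene on the opposite strand and 25 overlapped an exon of another transcript on their own strand, so the class name was borne out for 1689 of them. Their median length was 65 nt. The table holds introns of chromosome arms 2L, 2R, 3L, 3R and chromosome 4. It holds 0 introns of the X chromosome, so none of that chromosome could be analysed here.

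RNA came from wing imaginal discs, the larval epithelial sacs that form the adult wing, of Drosophila melanogaster third-instar larvae taken 7 days after the eggs were laid. Each of the 12 samples pooled 150 discs, and there were 4 samples in each of 3 groups. Control discs carried nub-Gal4 and UAS-mRFP, another group carried UAS-ecd-RNAi in addition, and the last carried UAS-ecd-RNAi together with xrp1-RNAi (also called double RNAi). nub-Gal4 and the red fluorescent reporter were thus shared by every group, and there was no group with Xrp1 RNAi alone here. The driver follows nubbin, a gene expressed in the wing pouch, so each disc also held tissue that expressed no hairpin.

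Most introns of Drosophila are short, and a large share of them lie near the shortest length that the spliceosome can process. In such introns the splice sites are thought to be paired across the intron, whereas in long introns they are first paired across the exon. The ecd gene (ecdysoneless) encodes a partner of Prp8, the protein at the core of the spliceosome that holds both splice sites in the active centre, while Xrp1 is a bZIP transcription factor that cells make under stress. A retention ratio is the share of transcripts that still hold the intron, from 0 for one that is always removed to 1 for one that is always present. In total RNA, an intron kept in a finished transcript and one not yet removed from a nascent transcript cannot be told apart by this ratio.

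The authors' mean ratio of each group was used, since the ratios per library are in columns whose names could not be tied to the samples. No SD or replicate check can therefore be given for a retention value, and the test is the authors' own, an adjusted p per intron from DESeq2. An intron is said to be called when that adjusted p was under 0.05. The depth behind an intron is given by the authors' base mean, which had a median of 35.5 for these introns and 37.8 for all introns, with a lowest value of 7.42 here. Introns of 1 gene share its transcripts and are not independent of each other, and 22 of the 1714 share all values with another intron that differs from it at 1 splice site.

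The libraries were looked at before the introns. The sum of normalized counts lay between 26500844 and 28994135 in the controls, between 32368922 and 35397850 under the label ecd RNAi and between 29133078 and 32260828 under the label of double RNAi. For the ecd transcript, controls spanned 1420.3 to 1654 normalized counts, libraries labelled ecd RNAi 1423 to 1982 and double RNAi libraries 1696 to 1825, so it gives no check of the label and each direction below rests on that label. Xrp1 was at 4511 to 5078, 18985 to 22964 and 4447 to 6048. The summed level of 8 fat body markers spanned 1365 to 76699.7 among controls, 1295 to 28970.3 under ecd RNAi and 1915 to 3085 under double RNAi. None of the 8 was at 0 in every library and none of them holds an intron of this set. The summed level of 6 wing pouch markers spanned 39454 to 44719 among controls, 29839 to 36157 under ecd RNAi and 39589 to 45666.5 under double RNAi. Hemocyte markers, 4 in number, summed to 1027 to 1970.5, 1316 to 1559 and 1023 to 1255 in the same order. The part of these cell types in the ratios was not tested.

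In control discs these introns were removed from most transcripts. The median mean ratio was 0.0519, with quartiles of 0.0318 and 0.0808. With ecd RNAi the median was 0.0602 (quartiles 0.0406 and 0.0950) and with ecd plus Xrp1 RNAi it was 0.0594 (quartiles 0.0388 and 0.0947). The ratio was higher with ecd RNAi than in control in 1109 introns, lower in 602 and equal in 3, a share of 64.7% higher beside 63.97% for all introns of the table. The median difference was 0.00982, with quartiles of -0.00768 and 0.0285, beside a median of 0.00941 for all introns. The ratio was higher by at least 0.05 in 183 introns and lower by that much in 46, 10.7% and 2.68% of the set, beside 13.9% and 4.91% of all introns. With ecd plus Xrp1 RNAi the median difference from control was 0.00853, beside 0.00701 for all introns. Here 183 introns were higher and 53 lower by at least 0.05, 10.7% and 3.09% of the set, beside 13.1% and 4.72% of all introns. Between the RNAi groups the median difference was -0.00163, with 803 introns higher and 911 lower when Xrp1 RNAi was added. For all introns the median was -0.00195, and 46.5% were higher beside 46.8% of the set. The libraries of each group enter more than 1 of these comparisons, so the 3 sets of values are not independent.

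The shift was then read by intron length among clean introns, and its median did not change in strict order of length. With ecd RNAi the median difference from control was 0.0230 in the 153 clean introns under 55 nt and 0.0159 in the 726 of 55 to 59 nt. Inside the set it was 0.0103 in 784 introns of 60 to 64 nt, 0.00875 in 439 of 65 to 69 nt, 0.0111 in 308 of 70 to 79 nt, 0.00691 in 96 of 80 to 89 nt and 0.00370 in 87 of 90 to 99 nt. In clean introns of 100 to 199 nt it was 0.00134, at 200 to 499 nt it was -0.00350 and at 500 to 999 nt -0.00632. At 1000 nt or more it was 0.00123. The median was thus positive in each bin of the set, and every bin of 100 nt or longer lay below all 5 of them. Under double RNAi the bins of the set gave 0.00934, 0.0102, 0.00716, 3.9e-04 and 0.0040 in order of length. At 1000 nt or more double RNAi gave 0.00132, above the bin of 80 to 89 nt. For introns of other classes than clean, the median difference with ecd RNAi was 0.0156 under 60 nt, 0.0133 at 60 to 99 nt and 0.00617 at 100 nt or longer. The order of these 3 length classes was thus not particular to clean introns. These are descriptions over introns, with no test, and the quartiles lay on both sides of 0 in every bin of the set.

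**Figure D1:**
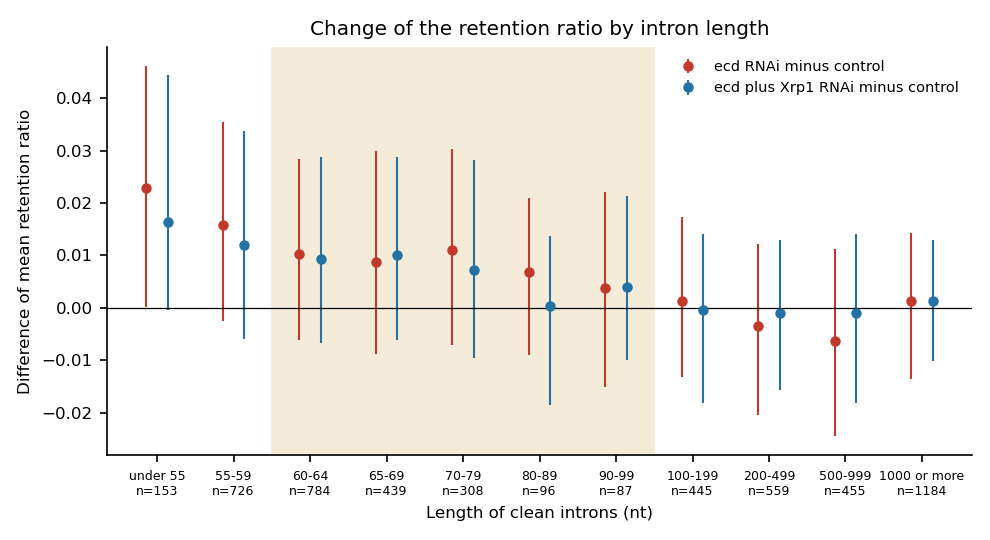
Median difference of the mean retention ratio from control (points) with the quartiles (bars) by length of clean introns in nt, for ecd RNAi in red and ecd plus Xrp1 RNAi in blue, with n introns per bin. The shaded bins from 60 to 99 nt have medians from 0.00370 to 0.0111 with ecd RNAi, between the higher values of shorter introns and values near or below 0 of introns of 100 nt or longer, and the bars of neighbouring bins overlap.

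The introns on either side of the length bounds were as follows. The 355 clean introns of 58 to 59 nt had a median ratio of 0.0511 in control and 0.0684 with ecd RNAi, and the 331 of 60 to 61 nt had 0.0494 and 0.0606. At the upper bound 14 introns of 98 to 99 nt had 0.0581 and 0.0545 and the 9 of 100 to 101 nt had 0.0978 and 0.0613. With ecd RNAi the order of the length classes was also there among introns of like level. Among clean introns with a mean over the 3 groups of up to 0.0395, the first quartile of the set, the median difference with ecd RNAi was 0.00837 for 60 to 99 nt, 0.0090 for shorter clean introns and -3.0e-04 for longer ones. Among those with a mean above 0.0876, the upper quartile, the 3 values were 0.0221, 0.0298 and -0.00336. Among the introns above the upper quartile of base mean, the most deeply covered, they were 0.00986, 0.0171 and 0.00159. Under double RNAi the values up to the first quartile of ratio were 0.00561, 0.00359 and -3.8e-05, so the set lay above the shorter clean introns there. Above the upper quartile of ratio they were 0.0215, 0.0308 and -3.7e-04, and above that of base mean 0.00725, 0.0143 and 8.4e-04, in the same order as with ecd RNAi.

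The genes were then held constant. In 529 genes that hold both an intron of this set and a clean intron of 100 nt or longer, the median difference with ecd RNAi was larger for the shorter class in 345 genes and smaller in 184. The median over these genes was 0.00989 for the introns of 60 to 99 nt and -1.2e-04 for the longer ones of the same genes. Under double RNAi the shorter class was higher in 326 genes and lower in 203. In 368 genes that hold both an intron of this set and a clean intron under 60 nt, the introns of 60 to 99 nt had the larger difference with ecd RNAi in 160 and the smaller in 205.

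Which single introns changed with ecd RNAi was asked with the authors' test. Of the 1714 introns, 26 in 24 genes were called higher and 0 lower, 1.52% of the set, where 2.32% of all 17817 introns were called, 2.18% higher and 0.14% lower, in the authors' deposited table. The share called in this set was thus under that of the whole table. It was 2.05% in clean introns under 60 nt, 0.303% in those of 100 nt or longer and 3.67% in the 5229 introns of 60 to 99 nt in the other classes, whose class names mark a known exon or a feature of the opposite strand. The share called also moved with depth, from 1 of the 429 introns of lowest base mean to 15 of the 428 of highest base mean. In the same ranges of base mean, 0.568% and 4.59% of all introns of the table were called. The rise with depth was thus not particular to this set, whose share was the lower at both ends. The called introns had a median ratio of 0.0326 in control, 0.119 with ecd RNAi and 0.104 with ecd plus Xrp1 RNAi, and their rises ran from 0.0230 to 0.240. Since the test of ecd RNAi against control chose these introns, nothing is read from the gap of either RNAi group to that control. The called introns were 60 to 79 nt long, 20 of them under 70 nt, and none of the 183 introns of 80 to 99 nt was called by DESeq2 in the authors' deposited table.

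**Figure D2:**
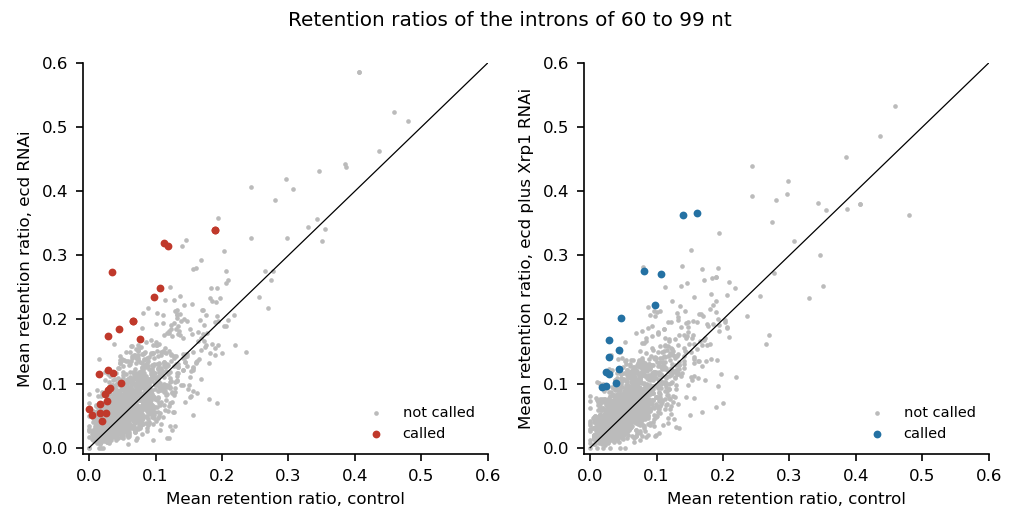
Mean retention ratio of each intron of 60 to 99 nt in control (x axis) against ecd RNAi (left) and ecd plus Xrp1 RNAi (right), with introns called in the authors' deposited table in colour and equality as a line. The 26 and 15 called introns all lie above the line, and 4 introns with a control ratio of over 0.6 are outside the axes.

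Intron 1 of eIF5B, a GTPase that joins the ribosomal subunits at the start codon, is 73 nt long (chromosome 3L, 3460099 to 3460171, minus strand, genome build BDGP6) and lies between coding exons. Its ratio was 0.0287 in control, 0.121 with ecd RNAi and 0.114 with ecd plus Xrp1 RNAi, and it had the lowest adjusted p of the set, 4.4e-06 in the authors' deposited table, with a base mean of 136. Both RNAi groups were above control for this intron, with a difference of -0.00723 when Xrp1 RNAi was added. Intron 6 of Taf4, a subunit of the general transcription factor TFIID (63 nt, chromosome 3L, 16118109 to 16118171), went from 0.0279 to 0.0903 with ecd RNAi (adjusted p = 0.0366 in the authors' deposited table) and was at 0.141 with ecd plus Xrp1 RNAi. Intron 8 of Atac3, which encodes a subunit of the ATAC histone acetyltransferase complex (60 nt, chromosome 3L, 325695 to 325754), stood at 0.0456, 0.186 and 0.150 in the order control, ecd RNAi and ecd plus Xrp1 RNAi. Intron 1 of IntS3, which encodes a subunit of the Integrator complex that cleaves nascent RNA (61 nt, chromosome 2R, 4242700 to 4242760), stood at 0.0762, 0.169 and 0.134. Intron 5 of Dbp80, a DEAD-box helicase gene (60 nt), stood at 0.0476, 0.101 and 0.0581, and intron 2 of lola, a BTB zinc finger transcription factor gene with many alternative transcripts (64 nt), at 0.0186, 0.0417 and 0.0295. The lola intron is in all 24 annotated transcripts that span it, and its rise of 0.0230 was the smallest among the called introns, with the largest base mean of them, 249.

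Intron 2 of Sarm, which encodes an enzyme that breaks down NAD in degenerating axons, is 64 nt long (chromosome 3L, 8072305 to 8072368, plus strand) and rose from 0.0339 to 0.274 (adjusted p = 0.0349 in the authors' deposited table), with 0.0924 under ecd plus Xrp1 RNAi and a base mean of 17. That rise of 0.240 was the largest in the set. Intron 1 of CG30022 (63 nt, chromosome 2R, 11388145 to 11388207) rose from 0.112 to 0.319, and intron 1 of CG11279, the only intron of its transcript (63 nt, chromosome 3L, 13047172 to 13047234), from 0.118 to 0.314. With ecd plus Xrp1 RNAi these 2 introns stood at 0.171 and 0.170. The difference between the RNAi groups did not pass for Sarm, CG30022 or CG11279, with adjusted p of 0.631, 0.593 and 0.444 in the authors' deposited table.

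Intron 2 of otk, a gene for a transmembrane receptor with an inactive kinase domain (69 nt, chromosome 2R, 12013921 to 12013989, minus strand), stood at 0.0283 in control, 0.174 with ecd RNAi and 0.168 with ecd plus Xrp1 RNAi. It was called in both comparisons with control, with adjusted p of 0.00287 and 0.00710 in the authors' deposited table. Intron 1 of GstE11, a glutathione S-transferase gene (79 nt, chromosome 2R, 18503662 to 18503740), lies in the 5′ UTR and stood at 0.0969, 0.235 and 0.222, with adjusted p of 0.00421 and 0.0131 in the authors' deposited table. Intron 2 of l(2)k09848 (63 nt, chromosome 2R, 6075001 to 6075063) stood at 0.107, 0.249 and 0.271, and intron 2 of lace, which encodes a subunit of serine palmitoyltransferase (64 nt), at 0.0237, 0.0841 and 0.0967. In each of these 4 introns the RNAi groups were closer to each other than either was to control. All 4 were called against control in both comparisons, so nothing is read from this.

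Intron 6 of cnc, the fly relative of the antioxidant transcription factor Nrf2 (64 nt, chromosome 3R, 23197836 to 23197899), stood at 0.0148, 0.114 and 0.0761. It was called with ecd RNAi (adjusted p = 0.00409 in the authors' deposited table) and is present in all 9 annotated transcripts that span it. Intron 2 of Cortactin, an actin-binding protein gene (68 nt), stood at 0.0354, 0.116 and 0.0826, intron 3 of Mbs, the regulatory subunit of myosin phosphatase (64 nt), at 0.00352, 0.0505 and 0.0462, and intron 3 of cnn, a centrosome protein gene (70 nt), at 0.0314, 0.0926 and 0.0594. Intron 2 of aPKC, a kinase of apical cell polarity (61 nt), stood at 0.0272, 0.0733 and 0.0621. Intron 7 of lap, a clathrin assembly gene (65 nt), stood at 0.0158, 0.0676 and 0.0488. Intron 6 of Sap47, a synapse-associated protein gene (65 nt), was at 0 in control and at 0.0597 and 0.0615 in the RNAi groups. Intron 4 of Got1, which encodes a glutamate oxaloacetate transaminase (60 nt), was at 0.0159, 0.0542 and 0.0342, and intron 3 of drn (70 nt) at 0.0249, 0.0541 and 0.0250. The drn ratio with ecd plus Xrp1 RNAi was within 1.65e-04 of control, but the fall from ecd RNAi did not pass (adjusted p = 0.274 in the authors' deposited table).

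Of the 26 called introns, 4 are pairs that share 1 splice site and all their values. In CG30159 the pair of 60 and 65 nt in the 5′ UTR (chromosome 2R, 6993061 or 6993056 to 6993120) stood at 0.190, 0.339 and 0.266. In CG13319 the pair of 70 and 74 nt in the 3′ UTR (chromosome 2R, 12924352 or 12924348 to 12924421) stood at 0.0667, 0.198 and 0.112. The called introns therefore stand for 24 separate readings.

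**Figure D3:**
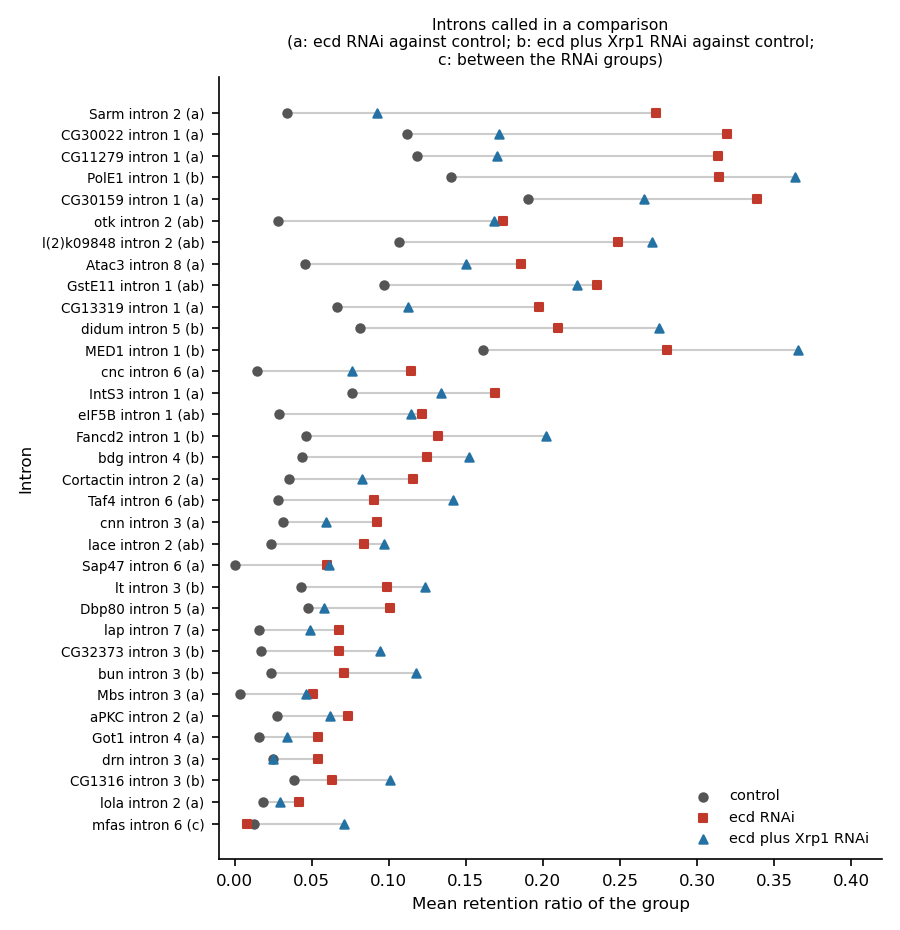
Mean retention ratio (x axis) in control, ecd RNAi and ecd plus Xrp1 RNAi for each intron called in a comparison, with the letters naming the comparison and pairs with identical values drawn once. The control point is the lowest of the 3 for every intron but mfas intron 6, and the RNAi groups take either order. The introns were chosen by these comparisons, so the low control points are no separate result.

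Compared with control, ecd plus Xrp1 RNAi gave 15 introns called higher in 15 genes and 0 lower, 0.875% of the set, where 1.26% of all introns were called, 1.19% higher and 0.0674% lower, in the authors' deposited table. Intron 1 of PolE1, which encodes the catalytic subunit of the replicative DNA polymerase epsilon (61 nt, chromosome 3R, 23348262 to 23348322), stood at 0.140 in control, 0.314 with ecd RNAi and 0.363 with ecd plus Xrp1 RNAi, and the rise of 0.223 was the largest of the 15 (adjusted p = 0.00959 in the authors' deposited table). For the same intron ecd RNAi alone against control gave an adjusted p of 0.0624 in the authors' deposited table, just beyond the threshold. Intron 1 of MED1, a Mediator subunit gene (65 nt, chromosome 3L, 21634197 to 21634261), stood at 0.161, 0.281 and 0.366, with adjusted p of 0.0964 and 0.00112 against control in the authors' deposited table. Intron 5 of didum, which encodes myosin V (64 nt, chromosome 2R, 7502738 to 7502801), stood at 0.0810, 0.210 and 0.275. Intron 1 of Fancd2, a gene for the repair of DNA crosslinks (66 nt), stood at 0.0462, 0.132 and 0.202. For bdg intron 4 (62 nt), lt intron 3 (67 nt, 5′ UTR), bun intron 3 (64 nt), CG32373 intron 3 (65 nt) and CG1316 intron 3 (62 nt) the ratio with ecd plus Xrp1 RNAi was 0.152, 0.123, 0.118, 0.0946 and 0.101, from 0.0440, 0.0429, 0.0235, 0.0173 and 0.0388 in control. With ecd RNAi alone these 5 stood between control and the double RNAi group, at 0.125, 0.0988, 0.0707, 0.0678 and 0.0633. None of these introns was called between the RNAi groups, so a call against control in 1 RNAi group and not the other does not show that the groups differ.

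Adding Xrp1 RNAi to ecd RNAi gave 1 called intron of 1714, higher, where 0.208% of all introns were called, 0.0786% higher and 0.129% lower, in the authors' deposited table. It was intron 6 of mfas, a gene for a fasciclin-domain adhesion protein (62 nt, chromosome 3R, 11986773 to 11986834, minus strand), at 0.0125 in control, 0.00806 with ecd RNAi and 0.0708 with ecd plus Xrp1 RNAi (adjusted p = 0.0367 in the authors' deposited table). The other 2 mfas introns of the set had the same order between the RNAi groups, and neither passed. Intron 5 stood at 0.0299 in control, 0.00734 with ecd RNAi and 0.0447 with ecd plus Xrp1 RNAi, and intron 8 at 0.00610, 0.0148 and 0.0473. The ratio with ecd RNAi was thus below control in introns 5 and 6 and above it in intron 8. The mfas transcript itself gave 1449, 1549, 1248 and 1583 normalized counts in the control libraries, 3809, 5401, 5944 and 4018.5 under ecd RNAi, and 1321, 1254, 1491 and 1653 under double RNAi. Its level was higher in all 4 libraries labelled ecd RNAi than in any other, and whether the level bears on the ratios was not tested.

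The other introns of the same genes were read beside the called ones. The 24 genes with a called intron held 18 other introns of the set, in 12 genes, with a median difference of 0.0252 with ecd RNAi and a range from -0.0513 to 0.0541, beside a median of 0.0928 for the called introns, which were chosen for their rise, so nothing is read from that gap. In Sarm, intron 5 went from 0.0906 to 0.0393 and intron 6 from 0.0708 to 0.0993, while intron 2 rose to 0.274. In Taf4, intron 9 went from 0.0482 to 0.0670 and intron 10 from 0.129 to 0.0868. In otk, intron 5 stood at 0.0391, 0.0434 and 0.0445 in the 3 groups, beside the rise of intron 2. IntS3 intron 3 went from 0.0781 to 0.103 and intron 4 from 0.0462 to 0.0473. The other introns of lap were also higher, with intron 5 from 0.0190 to 0.0451 and intron 9 from 0.0314 to 0.0647. In Dbp80, intron 3 went from 0.0392 to 0.0686. These other introns did not pass the authors' test, and the difference between introns of a gene was not tested. Genes with the most introns of the set had none called, where 1.52% of the set and 2.32% of all introns were called. With so few introns per gene, nothing is read from that. Bruce, which encodes a giant inhibitor of apoptosis protein, holds 11, with differences from -0.0317 to 0.0111 and a median of -8.2e-04. Pvr, the receptor tyrosine kinase related to PDGF and VEGF receptors, holds 10, with differences from -0.00738 to 0.0882 and 8 of them higher.

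**Figure D4:**
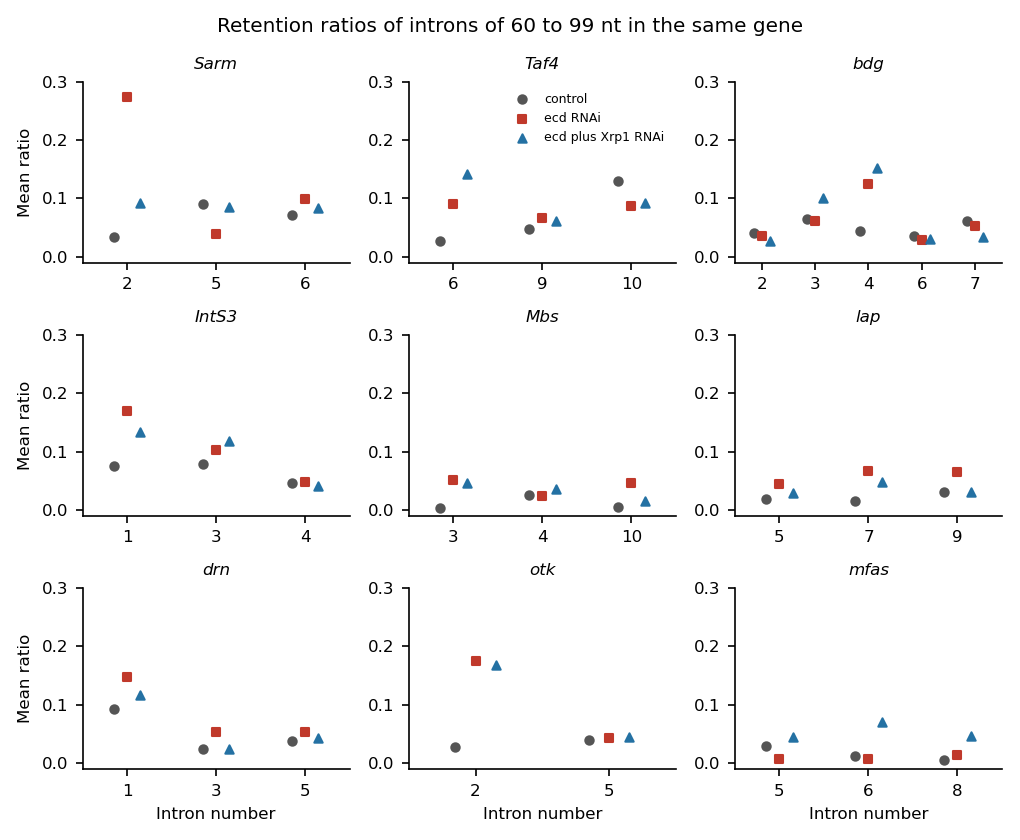
Mean retention ratio (y axis) in control, ecd RNAi and ecd plus Xrp1 RNAi for introns of 60 to 99 nt that share a gene, by intron number. Intron 2 of Sarm and intron 2 of otk, chosen for their rise, reach 0.274 and 0.174 with ecd RNAi. The other introns of these genes, not called, differ from control by less, and nothing is read from that contrast. The 3 introns of lap all lie higher with ecd RNAi.

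The position of the introns in their transcripts was then compared. Coding sequence flanked 1673 of the 1714, 31 were in a 5′ UTR and 10 in a 3′ UTR. The median control ratio was 0.0515, 0.0928 and 0.0803 in these groups, the median difference with ecd RNAi was 0.00976, 0.0291 and 0.00512, and 21, 3 and 2 introns were called in the authors' deposited table. Of all introns, whatever their position, 2.32% were called. Both called introns in a 3′ UTR are the CG13319 pair, and 2 of the 3 in a 5′ UTR are the CG30159 pair. The forms of each pair share all their values and are a single reading, so nothing is read from the UTR counts. First introns of transcripts with several introns, 82 in number, had a median control ratio of 0.0861 and a median difference of 0.0283, beside 0.0509 and 0.00922 for 1356 inner introns and 0.0519 and 0.00944 for 256 last introns. In 20 introns that are the only one of their transcript the median difference was 0.0185, and 5 of them were called in the authors' deposited table, including both CG30159 and both CG13319 forms. An intron whose length is a multiple of 3 leaves the reading frame downstream in place if it holds no stop codon. The length was a multiple of 3 in 618 introns, and the median difference was 0.0103 for these beside 0.00819 and 0.0106 for introns with a remainder of 1 or 2. Of the 26 called introns, 9 had a length that is a multiple of 3. In 1604 of the set, 22 of the called among them, all annotated transcripts that span the site have the same intron with both its splice sites. For the others, a transcript without that exact intron can still lack its sequence through another splice site.

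Some introns of the set were in most transcripts in every group. Intron 2 of CG34171 (62 nt) stood at 1, 1 and 0.990, intron 1 of CG43675 (98 nt) at 0.984, 0.962 and 0.989, intron 2 of Yeti (72 nt, 3′ UTR) at 0.929, 0.849 and 0.923 and intron 6 of lola (91 nt) at 0.907, 0.911 and 0.896. Base means were 11.7 to 38.3 for these 4. The intron in lola is annotated with both its splice sites in 1 of 23 transcripts that span it. Whether the other transcripts keep its sequence or remove it with other splice sites was not read. Other high control ratios were those of CG33978 introns 5 and 11, at 0.479 and 0.386, PolZ1 intron 6, in the gene for the catalytic subunit of DNA polymerase zeta, at 0.4596, and CycT intron 1, in the gene for cyclin T, at 0.436. Intron 2 of sas, a cell surface receptor gene, is listed in forms of 69 and 73 nt in the 5′ UTR and stood at 0.406, 0.586 and 0.380. None of these introns was called in the 3 comparisons of the authors' deposited table.

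Few of the introns lie in the genes of the splicing machinery. The list of spliceosome genes held 5 introns in 3 genes, 4 of them higher with ecd RNAi, with a median difference of 0.0133, and 0 were called in the authors' deposited table. Intron 4 of Prp8 (62 nt) stood at 0.0581, 0.107 and 0.113 and intron 3 (60 nt) at 0.0291, 0.0507 and 0.0522. Their adjusted p with ecd RNAi was 0.145 and 0.400 in the authors' deposited table. Sf3b3, of the U2 particle, had introns at 0.0672, 0.0733 and 0.0560 and at 0.0843, 0.0820 and 0.0800. Caper, which encodes a splicing factor related to U2af, had intron 3 at 0.343, 0.356 and 0.382. SR and hnRNP splicing factor genes held 4 introns with a median difference of 0.0245, none called in any comparison of the authors' deposited table. Intron 3 of mub (60 nt) stood at 0.0145, 0.0441 and 0.0191 and intron 5 of glo (67 nt) at 0.0394, 0.0748 and 0.0619. Among the genes of the perturbed pathway, p53 held 1 intron of the set (62 nt), at 0.109, 0.0964 and 0.0352, and ecd, Xrp1, Irbp18 and crc held none.

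Other lists were as thin. The list of DNA repair and checkpoint genes held 6 introns in 4 genes, 3 of them higher with ecd RNAi, with a median difference of -0.00214. Intron 4 of E2f2, the one intron of the cell cycle and replication list, stood at 0.0638, 0.140 and 0.0849. These lists do not cover every gene of their class. Fancd2, PolZ1 and PolE1, named above, are on neither list, and the introns of Fancd2 and PolE1 named above were called with ecd plus Xrp1 RNAi against control. The JNK list held 3 introns with a median difference of 0.0108, in scaf, msn and cher. The wing pouch list held intron 6 of vg, the pouch selector gene, at 0.0899, 0.142 and 0.129, and intron 5 of Dll, at 0.194, 0.198 and 0.192. The proteasome, mitochondrial ribosomal protein and oxidative phosphorylation lists held 1 intron each, in Rpn2, mRpS35 and ND-B14.5B, with differences of 0.0167, 0.0135 and 0.0209. The hemocyte list held 1, in vkg, at 0 in control, 0.0333 with ecd RNAi and 0.00694 with ecd plus Xrp1 RNAi, and the adult muscle precursor list 1, in Mef2, at 0.0275, 0.0481 and 0.0161. Ribosomal protein genes and fat body genes held none. Apart from eIF5B, the one member of the translation factor list, no intron of a list was called in the authors' deposited table.

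The level of the host genes is a second readout of the same libraries. Of the 818 genes, 809 had a mean of at least 10 normalized counts and were tested with limma over all 10179 such genes. With ecd RNAi against control, 245 rose and 176 fell, 30.3% and 21.8% of those tested, beside 22.4% and 25.4% of all genes. When Xrp1 RNAi was added to ecd RNAi, 228 rose and 198 fell, beside 26.7% and 20.6% of all genes, and under quantile normalization the split was 196 and 264, and without the 4 libraries richest in the fat body transcript Lsp2 it was 140 and 196. With ecd plus Xrp1 RNAi against control, 18 rose and 17 fell, beside 2.29% and 2.1% of all genes. These 35 calls were 17 to 21 without any 1 of the control libraries or of replicates 2 and 3 of ecd plus Xrp1 RNAi, and 57 under quantile normalization. In bulk RNA, fewer cells of a type and less RNA per cell cannot be told apart in such levels. With ecd RNAi the median difference of ratio was 0.00821 for 549 introns whose gene rose, 0.0119 for 326 whose gene fell and 0.0106 for 824 whose gene did not pass. The share called was 0.729%, 2.76% and 1.58% in these 3 groups in the authors' deposited table.

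Of the 24 genes with an intron called with ecd RNAi, 4 rose and 8 fell in limma. These are 16.7% and 33.3%, beside 22.4% and 25.4% of all genes, and with 24 genes nothing is read from the split. The 8 were eIF5B, GstE11, otk, lap, l(2)k09848, Cortactin, CG13319 and Got1, of which Got1 did not pass without control replicate 1 or 2, without ecd RNAi replicate 3 or 4, without the 4 libraries rich in Lsp2 or under quantile normalization (adjusted p in limma of 0.00813 to 0.0983 over the settings). The adjusted p of l(2)k09848 in limma rose from 0.00325 to 0.0710 without those 4 libraries. For eIF5B the control libraries gave 6486, 6560.1, 6327 and 6170.1 normalized counts, those labelled ecd RNAi 5203, 5514, 4899.8 and 4989, and the double RNAi libraries 6355, 6347, 6322 and 7112. All 4 libraries labelled ecd RNAi were below all others, and the level fell by 0.31 ± 0.05 (SE) on the log2 scale (limma adjusted p = 4.3e-04). The otk transcript was at 3337, 3192, 3198 and 3008 in control, at 2195, 2219.7, 1955 and 2287 under ecd RNAi and 3241, 3091, 3095 and 3315 in the double RNAi group. It fell by 0.56 ± 0.06 (limma adjusted p = 4.5e-06) with no overlap, and rose again by 0.56 ± 0.06 with Xrp1 RNAi added, while the ratio of its intron 2 changed by -0.00585 between the RNAi groups. GstE11 was at 1909.6, 1969, 1700.03 and 1595 in control, at 1068, 1003, 831 and 989 under ecd RNAi and 1586, 1565, 1431 and 1476 in the double RNAi group. It fell by 0.88 ± 0.09 and rose by 0.64 ± 0.09 with Xrp1 RNAi added (limma adjusted p = 3.1e-06 and 5.4e-05), with intron 1 at 0.235 and 0.222 in the RNAi groups. In eIF5B, otk and GstE11 the level in ecd plus Xrp1 RNAi discs did not pass against control, with changes of 0.03, 0.00 and -0.24 in limma. Their introns were called against control in both RNAi groups, so nothing is read from level and ratio side by side. Of the other genes that fell with ecd RNAi, the intron of l(2)k09848 was also called with double RNAi. Those of lap, Cortactin, CG13319 and Got1 were not. The GstE11 level was lower in all 4 double RNAi libraries than in any control library, and its adjusted p in limma was 0.136 (0.0158 to 0.304 over the settings), and it passed under quantile normalization and without the 4 libraries rich in Lsp2.

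The 4 that rose were Sarm, cnn, cnc and lola. Sarm was at 3253, 3448, 2843 and 3476 in control, at 6901, 8109.9, 7495 and 6814 under ecd RNAi and 3078, 2949.98, 3369 and 4709 in the double RNAi group. It rose by 1.17 ± 0.13 (limma adjusted p = 8.4e-06) with no overlap of the ecd RNAi libraries with the others. cnn rose by 0.60 ± 0.07, lola by 0.44 ± 0.06 and cnc by 0.21 ± 0.06 (limma adjusted p = 1.7e-05, 4.8e-05 and 0.0114). Among the 15 genes with an intron called with ecd plus Xrp1 RNAi against control, CG32373 was the only one whose level passed in that comparison. Of all genes, 2.29% rose and 2.1% fell in it. The mean level of CG32373 was 2364 ± 107 (SD, n = 4) in control, 2547 ± 65.4 with ecd RNAi and 961 ± 51.3 with ecd plus Xrp1 RNAi, and it fell by 1.30 ± 0.05 against control (limma adjusted p = 2.8e-08).

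**Figure D5:**
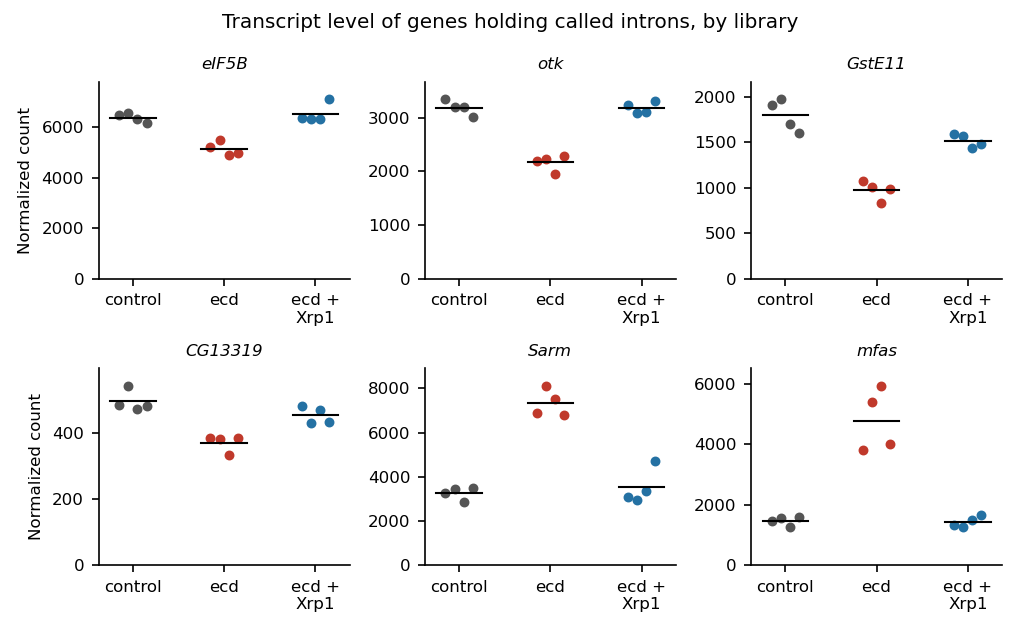
Normalized counts (y axis, from 0) of 6 genes that hold a called intron, one point per library and the group mean as a line. The libraries labelled ecd RNAi lie below all others for eIF5B, otk, GstE11 and CG13319 and above all others for Sarm and mfas, and the means of the ecd plus Xrp1 RNAi libraries lie nearer to control than to ecd RNAi.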

How the data were processed

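Bulk RNA of 12 wing disc samples, 4 in each of 3 groups, was measured, with 4 biological replicates per group per the labels. Per the submitters' processing notes the tools include FastQC, cutadapt 3.5, kallisto 0.46.1 and DESeq2 1.34.0 with the genome build BDGP6; for the tool behind the retention ratios, its name was not given in the sources used here. The authors deposited mean retention ratios per group as a fraction from 0 to 1, with a DESeq2 adjusted p-value, log2 fold change and base mean (a signal) per intron and comparison, per the file headers. The 12 columns of ratios per sample were not used, since their names match no sample's labels. Expression values were deposited by the authors as normalized counts (a signal, not raw counts), per the file headers.

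From these, introns were chosen by class and length, signs of the authors' log2 fold changes were turned so that a positive value is higher with RNAi, and introns were placed in the Ensembl BDGP6 annotation with pandas 2.3.3. Host gene levels were tested with limma 3.58.1 in R 4.3.3 on log2(normalized count + 1) over 10179 genes with a mean of at least 10, two-sided, with Benjamini-Hochberg adjustment and a threshold of 0.05. The fold changes are on that scale, which understates changes of low genes. The script was tested on simulated data. Introns were named where called and among the 10 largest rises with ecd RNAi or the 5 largest in the other comparisons, in Prp8, p53 and other genes of the pathway, or in the lists; the other called introns and those of highest control ratio were named after their values were seen. The members, lists and tests were chosen with earlier results of these data known. Intron sequences were not used here.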

Additional observations from a re-analysis of the deposited data

Results flagged for a closer look

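Of 102 groups of 4 libraries, in 34 genes that hold a named intron, 6 had 1 library whose gap to the nearest other, divided by the range, was above Dixon's 95% critical value; chance gives about 1 in 20. In the libraries labelled ecd RNAi, replicate 3 was the lowest for CG13319, at 334 normalized counts beside 381 to 383, and for IntS3, at 3162 beside 3738 to 3794. Replicate 2 of that group was the highest for didum, at 2399 beside 2203 to 2234, and control replicate 1 was the highest for didum in its group, at 2495 beside 2194 to 2243. With ecd plus Xrp1 RNAi, replicate 4 was the highest for Sap47, at 1967 beside 1689.7 to 1721, and for eIF5B, at 7112 beside 6322 to 6355.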

How the results depend on the processing

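At an adjusted p under 0.01 in the authors' deposited table, the called introns were 6 with ecd RNAi, 5 with ecd plus Xrp1 RNAi and 0 between the RNAi groups by DESeq2. With 1 intron per gene the first count was 16 and the last 0, and in genes that did not pass the expression test they were 13 and 0, each with fewer introns counted. The other settings gave 21 to 30 calls for ecd RNAi and 11 to 16 for double RNAi. Host genes past the threshold in limma were 421 with ecd RNAi (379 to 463 without 1 replicate each), 426 between the RNAi groups (383 to 451) and 35 with ecd plus Xrp1 RNAi against control (17 to 49), the last 57 under quantile normalization, and the cause was not tested. Without the 4 libraries rich in Lsp2, which was added after the data had been seen, the counts were 333, 336 and 30. With the replicate block they were 412, 418 and 35. Of 12 same-number pairs (r from -0.347 to 0.559), 4 correlated over 0.1, and all of these paired control with ecd RNAi. The same-number pairs with double RNAi were all negative. Control and ecd RNAi libraries also correlated across numbers, as control 3 with ecd RNAi 4 (r = 0.564) and with ecd RNAi 1 (r = -0.555). Of 12 libraries, 2 correlated best with their own number. For the retention ratios no paired analysis was possible because the numbers in the names of the columns per sample match no sample label, and the fits per sample, their pseudocounts and the leaving out of samples were not run. Base mean limits which introns could be called, and interval estimates of the ratios could not be made from means alone.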
